A study of Mus musculus with 4 samples.

Results

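The genes described here are 9 transcriptional repressors and pathway inhibitors of the mouse islet, *Id1*, *Id2*, *Id3*, *Id4*, *Hes1*, *Hes6*, *Hey1*, *Smad6* and *Smad7*. They were chosen by name, with earlier results of these data known, and each is 1 entry among the 24012 genes of the deposited table. Isolated islets, all from wild type C57bl6 male mice of 3 months of age, were pooled, cultured overnight in medium with 11 mM glucose and then kept low, at 2.8 mM, for 2 h. From there the 2.8 mM glucose group stayed at the low concentration and the 16.8 mM glucose group was moved to the high one, with 2 libraries of total RNA in each group. The study's text gives 12 h for both concentrations, but on the sample labels the 2.8 mM glucose group has 2 h, a conflict left unresolved here. The time spent at each concentration may therefore differ between the groups, and time and glucose cannot then be told apart. Both groups had passed through the same overnight culture and low-glucose step. As all islets came from one pool, the p-values below measure only the spread between these libraries, which may be technical.

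The inhibitor of DNA binding (Id) proteins are helix-loop-helix proteins without a basic region. They pair with E proteins and other basic helix-loop-helix (bHLH) factors and keep them off DNA, and their genes are classic immediate targets of bone morphogenetic protein (BMP) signals carried by receptor-regulated Smads. Hes and Hey proteins are bHLH repressors, and Hes proteins recruit Groucho co-repressors. *Hes1* and *Hey1* are classic targets of Notch, which restrains *Neurog3* during the formation of endocrine cells in the embryonic pancreas. *Smad6* and *Smad7* encode the inhibitory Smads, which are induced by BMP and transforming growth factor beta (TGF-beta) signals and feed back on them. *Id1*, *Id3*, *Hey1* and *Smad6* are also well known in endothelial cells, a minor cell type of the islet.

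The sequences 5′ to each start are shown for members whose promoter was listed, because the pathways named above are usually described by short recognition motifs. A promoter entry was found by symbol for *Id2*, *Id3*, *Id4*, *Hes6* and *Smad6*. The 250 bases before the start are given on the gene's own strand, from RefSeq on build GRCm38.p6, with motif letters in capitals and the rest in lower case. The motifs searched, on both strands, were the SMAD box GTCTG, the BMP element GGCGCC, the RBPJ motif TGGGAA and the E-box CACGTG, and the BMP element and the E-box read the same on either strand. *Id2* lies at chr12:25096093-25096342 on the minus strand, *Id3* at chr4:136143572-136143821 on the plus strand, *Id4* at chr13:48260866-48261115 on the plus strand and *Smad6* at chr9:64022060-64022309 on the minus strand.
Id2: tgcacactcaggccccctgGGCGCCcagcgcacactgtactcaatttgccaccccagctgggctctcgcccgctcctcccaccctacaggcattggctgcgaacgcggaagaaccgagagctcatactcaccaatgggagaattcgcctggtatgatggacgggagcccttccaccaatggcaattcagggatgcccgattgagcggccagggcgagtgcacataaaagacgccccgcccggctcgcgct
Id3: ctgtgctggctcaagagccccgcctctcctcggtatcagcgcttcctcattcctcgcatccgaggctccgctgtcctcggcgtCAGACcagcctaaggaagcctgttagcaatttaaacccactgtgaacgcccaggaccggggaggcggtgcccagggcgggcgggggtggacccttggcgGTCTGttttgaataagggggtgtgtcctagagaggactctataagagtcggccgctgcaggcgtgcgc
Id4: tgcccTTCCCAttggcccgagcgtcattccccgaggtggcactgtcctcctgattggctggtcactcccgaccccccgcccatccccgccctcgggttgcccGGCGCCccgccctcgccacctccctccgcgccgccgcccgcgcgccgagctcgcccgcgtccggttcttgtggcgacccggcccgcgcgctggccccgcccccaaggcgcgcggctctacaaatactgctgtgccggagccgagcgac
Smad6: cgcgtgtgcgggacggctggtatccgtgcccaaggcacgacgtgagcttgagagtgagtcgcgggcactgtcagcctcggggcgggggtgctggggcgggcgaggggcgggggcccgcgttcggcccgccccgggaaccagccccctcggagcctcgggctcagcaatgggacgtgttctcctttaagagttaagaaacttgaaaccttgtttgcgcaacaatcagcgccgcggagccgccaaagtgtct

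All of these windows were rich in G and C, at 62.8% for *Id2*, 62.8% for *Id3*, 75.6% for *Id4* and 66.8% for *Smad6*. The *Id2* window held 1 GGCGCC, ending 226 bases before the start, and the *Id4* window held 1 GGCGCC together with 1 TGGGAA. The *Id3* window held 2 copies of the SMAD box, 1 on each strand, and the windows before the 2 starts of *Hes6*, not shown, held 1 SMAD box each. The *Smad6* window held none of the motifs, and CACGTG was in none of the windows. Among 32851 promoter windows of the same length, GTCTG was present in 42.2%, GGCGCC in 9.59%, TGGGAA in 21.6% and CACGTG in 6.02%. A match of such short letters is a description of the sequence and not a binding site.

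The files hold RPKM, reads per kilobase of transcript scaled by the depth of the library. Low values stepped as whole reads do when the length is the transcript's whole stretch of genome with its introns, and not when it is the exons alone. Multiplying RPKM by span and library depth came within 0.114 of whole reads in all 4 libraries for *Id1*, *Id3*, *Id4*, *Hes6* and *Hey1*, and reads of the other members are approximate. Recovered depth was 50800000 to 60710000 reads per library. Pancreatic hormone genes marked the samples as islets. The summed RPKM over 11 endocrine markers was 26600 and 23370 at 2.8 mM glucose and 47650 and 43930 at 16.8 mM glucose. In the main test described below, 10 of these markers were tested, of which 6 were higher, 0 were lower and 4 were not called. Genes of endothelial, stromal, acinar, duct and leukocyte cells were also read. In such mixed samples, fewer cells of a type and less RNA per cell cannot be told apart.

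Among the 9 genes, *Hes1* rose at 16.8 mM glucose and none fell. The main test was limma on log2(RPKM + 0.5), applied where the mean of the 4 libraries reached 1 RPKM and called at a Benjamini-Hochberg adjusted p under 0.05. Of the 9, 5 reached that mean (*Id1*, *Id2*, *Id3*, *Hes1* and *Hes6*), of which 1 was higher and 4 were not called. Over all genes, 33.4% of 7867 tested transcripts were called, 10.7% higher and 22.8% lower, so 1 of 5 is not far from the background. The fitted change was above 0 in 8 of the 9 genes, beside a median over all tested transcripts of -0.11. Both 16.8 mM libraries lay above both 2.8 mM libraries for 6 genes (*Id3*, *Hes1*, *Hes6*, *Hey1*, *Smad6* and *Smad7*), below for none, and the groups overlapped for 3. Among all entries with a mean of at least 20 reads, 23.7% had both 16.8 mM libraries above and 46.7% had both below. The split of calls over the table moved with scaling, from 31.9% higher as deposited to 42.3% after quantile normalization and 44.1% once the library medians were set equal.

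**Figure D1:**
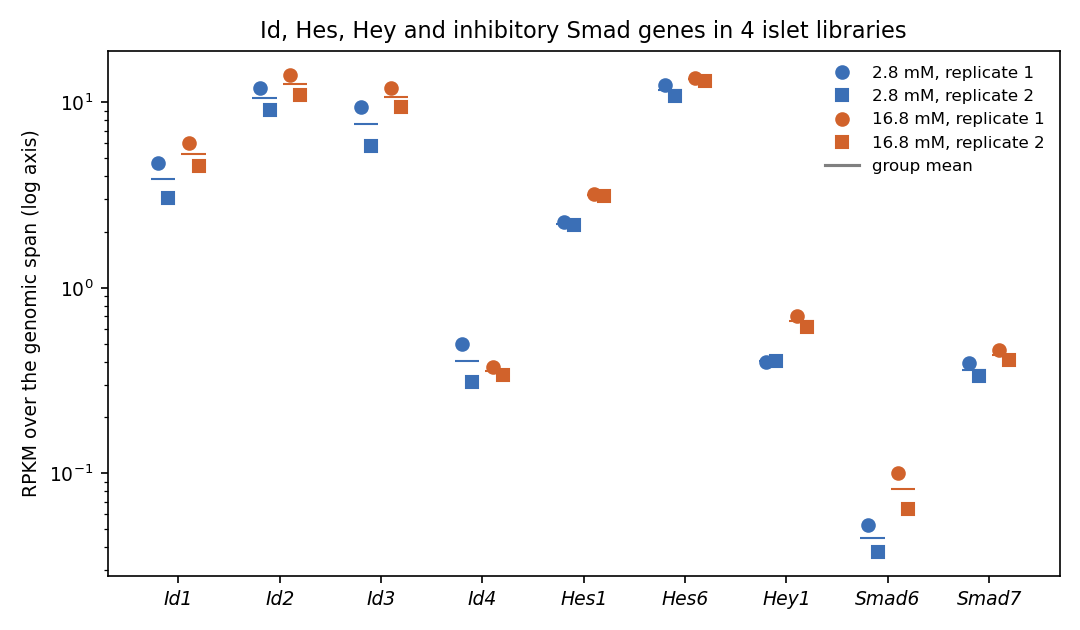
RPKM over the genomic span (vertical log axis) of the 9 genes in each of the 4 libraries, with blue for 2.8 mM glucose, orange for 16.8 mM glucose, circles for replicate 1, squares for replicate 2 and a horizontal line for each group mean. The pairs of *Hes1* points sit close together and apart between groups, from 2.19 to 2.25 RPKM at 2.8 mM and from 3.12 to 3.19 RPKM at 16.8 mM, whereas the points of *Id1*, *Id2* and *Id3* are spread within each group.

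By level per length of span, *Hes6* was the highest at 2.8 mM glucose, at a mean of 11.6 RPKM, followed by *Id2*, *Id3*, *Id1*, *Hes1*, *Id4*, *Hey1*, *Smad7* and *Smad6*. The libraries of *Hes6* overlapped with those of *Id2*, those of *Id2* with those of *Id3* and those of *Id4* with those of *Hey1*, and other neighbours did not overlap. At 16.8 mM glucose the first 5 places were the same, and *Hey1* and *Smad7* stood above *Id4*, with overlap for the *Hes6* and *Id2* pair and the *Id2* and *Id3* pair. This order is per span and not per messenger: the span of *Smad6* is 68914 bp around 2901 bp of exon and that of *Smad7* is 28407 bp around 4278 bp, while *Id1* spans 1160 bp around 934 bp of exon.

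*Id1* encodes an Id protein that is a standard readout of BMP signals. It lies at chr2:152561987-152563146 on build NCBI37 (mm9), on the plus strand in 2 exons. Its level was 4.72 and 3.04 RPKM in the 2.8 mM libraries and 6.03 and 4.53 RPKM in the 16.8 mM libraries, from 320, 183, 424 and 267 reads. The first 2.8 mM library stood above the second 16.8 mM library, so the groups overlapped. The means were 3.88 ± 1.19 and 5.28 ± 1.05 RPKM (SD, n = 2 each), a ratio of 1.36, and the fitted log2 fold change was 0.42 with a standard error of 0.20, a 95% interval of -0.06 to 0.89 and a limma adjusted p of 0.153. The call depended on single libraries. Without the first 2.8 mM library the log2 fold change was 0.70 (limma adjusted p = 0.00022), and without the second 16.8 mM library it was 0.60 (limma adjusted p = 0.031). Without the second 2.8 mM library it was 0.13 (limma adjusted p = 0.554), and without the first 16.8 mM library it was 0.23 (limma adjusted p = 0.363).

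*Id3*, which is often expressed together with *Id1*, had the largest fitted change of the 5 tested genes. It lies at chr4:135699412-135701307 on the plus strand in 3 exons. The level was 9.42 and 5.80 RPKM at 2.8 mM and 11.9 and 9.45 RPKM at 16.8 mM, from 1044, 571, 1370 and 910 reads. Both 16.8 mM libraries were above both 2.8 mM libraries, but the nearest were 9.4239 and 9.4535 RPKM and so nearly level. Means were 7.61 ± 2.56 and 10.7 ± 1.74 RPKM (SD, n = 2 each), a ratio of 1.40. The log2 fold change was 0.49 with a standard error of 0.22, a 95% interval of -0.03 to 1.01 and a limma adjusted p of 0.127. *Id3* passed the threshold in the other test made, limma's voom on the reconstructed reads, at a value of 0.52 (standard error 0.17, adjusted p = 0.0226). It also passed without the first 2.8 mM library, at 0.82 (limma adjusted p = 9.04e-06), and without the second 16.8 mM library, at 0.65 (limma adjusted p = 0.048). It did not pass without the second 2.8 mM library, at 0.16 (limma adjusted p = 0.463), nor without the first 16.8 mM library, at 0.33 (limma adjusted p = 0.256).

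*Id2*, the Id gene with the highest level here, lies at chr12:25778666-25780957 on the minus strand in 3 exons. It was read at 11.9 and 9.14 RPKM at 2.8 mM and at 14.1 and 10.9 RPKM at 16.8 mM, and the groups overlapped. The means were 10.5 ± 1.97 and 12.5 ± 2.27 RPKM (SD, n = 2 each), with a log2 fold change of 0.24, a standard error of 0.17, a 95% interval of -0.17 to 0.65 and a limma adjusted p of 0.324. Without the first 2.8 mM library the value was 0.42 (limma adjusted p = 0.043) and without the second it was 0.0545 (limma adjusted p = 0.824). Without the first 16.8 mM library it was 0.0584 (limma adjusted p = 0.851) and without the second it was 0.42 (limma adjusted p = 0.167).

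*Id4*, whose protein is best known from neural and mammary cells, was the only member with a lower mean at 16.8 mM. It lies at chr13:48356796-48359405 on the plus strand in 3 exons, and its start is overlapped by the antisense lincRNA *A330033J07Rik*, whose reads cannot be told apart from it without strand. Its level was 0.498 and 0.310 RPKM at 2.8 mM and 0.373 and 0.340 RPKM at 16.8 mM, from 76, 42, 59 and 45 reads. The 16.8 mM libraries lay between the 2.8 mM ones. At this level it was not tested by the main fit. Its difference on the log2(RPKM + 0.5) scale was -0.07 as deposited and 0.01 after centring, and voom gave -0.15 with a 95% interval of -0.79 to 0.49 (adjusted p = 0.715).

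*Hes1*, the bHLH repressor through which Notch acts on *Neurog3*, had the closest replicates of the 5 tested genes. It lies at chr16:30065426-30067882 on the plus strand in 4 exons. Its level was 2.25 and 2.19 RPKM at 2.8 mM and 3.19 and 3.12 RPKM at 16.8 mM, from about 323, 279, 476 and 390 reads. The groups were well apart, and the libraries of each group differed by far less than the groups did. Means were 2.22 ± 0.046 and 3.16 ± 0.050 RPKM (SD, n = 2 each), a ratio of 1.42. Voom on the reconstructed reads gave a log2 fold change of 0.51 (standard error 0.15, 95% interval 0.20 to 0.82, adjusted p = 0.0108). By limma the log2 fold change was 0.43 with a smaller standard error of 0.09, a 95% interval of 0.23 to 0.63 and a limma adjusted p of 0.0101. It passed the threshold in 16 of 16 alternatives that gave a p, at adjusted p from 0.0021 to 0.0379, among them each of the 4 fits without 1 library.

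*Hes6*, a member of the Hes family that counteracts *Hes1* in neural cells, was the highest of the 9 genes in both groups. It lies at chr1:93308060-93309799 on the minus strand in 4 exons. Its level was 12.4 and 10.8 RPKM at 2.8 mM and 13.6 and 13.0 RPKM at 16.8 mM, both of the latter above both of the former. The means were 11.6 ± 1.13 and 13.3 ± 0.41 RPKM (SD, n = 2 each), a log2 fold change of 0.19 with a standard error of 0.12, a 95% interval of -0.10 to 0.47 and a limma adjusted p of 0.269. With the libraries rescaled the value passed the threshold, at 0.23 after quantile normalization (limma adjusted p = 0.0425) and 0.27 after centring on the median (limma adjusted p = 0.0281).

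*Hey1*, a Notch target best known from vessels and heart, was read at a low level but with both groups apart. It lies at chr3:8663362-8667039 on the minus strand in 5 exons. Its level was 0.3998 and 0.4028 RPKM at 2.8 mM and 0.707 and 0.615 RPKM at 16.8 mM, from 86, 77, 158 and 115 reads. The means were 0.401 ± 0.0021 and 0.661 ± 0.065 RPKM (SD, n = 2 each), a ratio of 1.65. It fell short of the mean of 1 RPKM and was not tested by the main fit, where the added 0.5 RPKM holds its difference to 0.36. On reconstructed reads voom gave 0.72 (standard error 0.23, 95% interval 0.24 to 1.20, adjusted p = 0.018). With no minimum RPKM in limma, the adjusted p was 0.059.

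**Figure D2:**
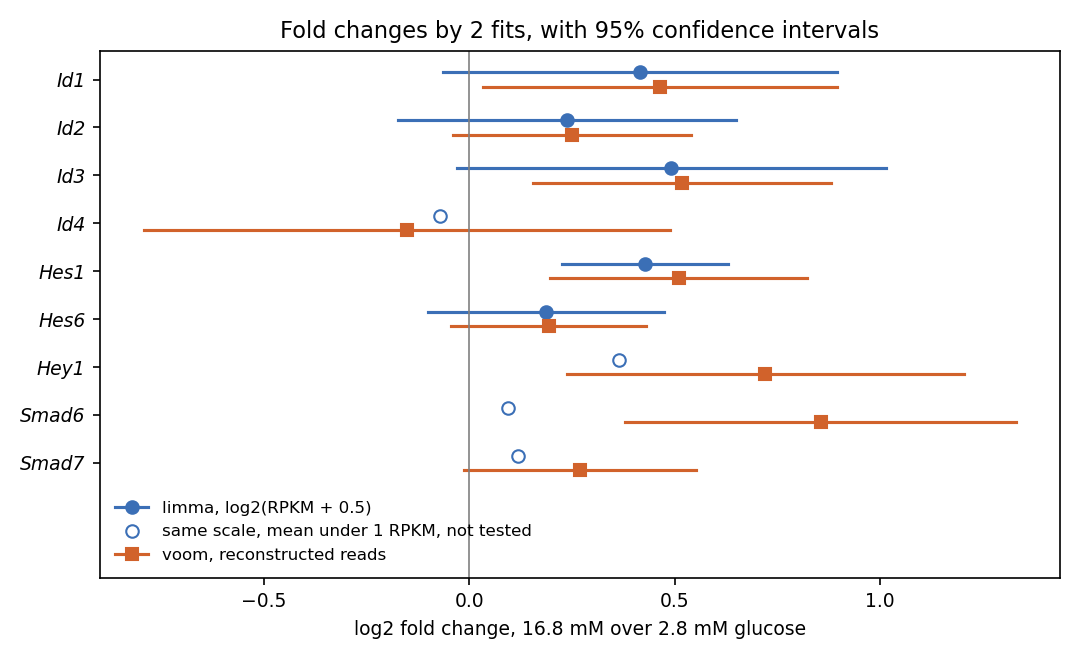
Log2 fold change of 16.8 mM over 2.8 mM glucose (horizontal axis) for the 9 genes, with blue circles for limma on log2(RPKM + 0.5), open circles for genes under a mean of 1 RPKM that had no test there, orange squares for voom on reconstructed reads and lines for 95% confidence intervals. By limma only the *Hes1* interval lies above 0, from 0.23 to 0.63, and by voom the intervals of *Id1*, *Id3*, *Hes1*, *Hey1* and *Smad6* lie above 0, before any adjustment for multiple tests.

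*Smad6*, the inhibitory Smad that acts mainly on BMP receptors, had the largest ratio of the 9 genes. It lies at chr9:63800953-63869866 on the minus strand in 4 exons. Its level was 0.0523 and 0.0377 RPKM at 2.8 mM and 0.1 and 0.0639 RPKM at 16.8 mM, which over its long span amounts to about 211, 135, 418 and 224 reads. Both 16.8 mM libraries were above both 2.8 mM libraries, by a small margin for the second one. The means were 0.0450 ± 0.0103 and 0.0820 ± 0.0255 RPKM (SD, n = 2 each), a ratio of 1.82. It was not tested by the main fit, where the added 0.5 RPKM leaves a difference of 0.09. Voom gave 0.86 (standard error 0.23, 95% interval 0.38 to 1.33, adjusted p = 0.0058), and limma with no minimum RPKM an adjusted p of 0.25. Reads within introns enter this value, so the RPKM is not a level of the mature messenger.

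*Smad7*, the inhibitory Smad that acts on TGF-beta and BMP receptors alike, lies on chromosome 18 in 4 exons on the plus strand. Its level was 0.391 and 0.333 RPKM at 2.8 mM and 0.462 and 0.410 RPKM at 16.8 mM. The groups did not overlap, and the means were 0.362 ± 0.041 and 0.436 ± 0.037 RPKM (SD, n = 2 each), a ratio of 1.20. It was below the mean needed for the main test, and voom gave 0.27 with a 95% interval of -0.01 to 0.55 and an adjusted p of 0.115. An lncRNA entry is named for a position 2295 bp before the start of *Smad7*, which is not the distance between the transcripts. Its level went the other way, at 0.509 and 0.493 RPKM at 2.8 mM and 0.417 and 0.384 RPKM at 16.8 mM, from 93, 80, 79 and 61 reads. This entry was looked up after the values of *Smad7* were seen.

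By voom, 4 of the 9 genes passed the threshold (*Id3*, *Hes1*, *Hey1* and *Smad6*), all higher at 16.8 mM, where 13.7% of 17599 entries were called higher and 28.7% lower. By the main test the count was 1 member, beside 1 at an unadjusted limma p under 0.05. With 1 library left out, the log2 fold change ranged from 0.13 to 0.70 for *Id1* and from 0.0545 to 0.42 for *Id2*. It ranged from 0.16 to 0.82 for *Id3* and from 0.41 to 0.45 for *Hes1*.

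Replicate 1 was above replicate 2 in both groups for 8 of the 9 genes, *Hey1* being the exception at 2.8 mM, and for 64.0% of all entries with a mean of at least 20 reads. For *Id1* the ratio of replicate 1 to replicate 2 was 1.55 at 2.8 mM and 1.33 at 16.8 mM, and for *Smad6* it was 1.39 and 1.57. For *Hes1* it was 1.03 and 1.02. The 12 endothelial markers had the same lean, with replicate 1 above replicate 2 in both groups for 11 of 12 and a median ratio of 1.45 at 2.8 mM and 1.39 at 16.8 mM.

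The summed level of the endothelial markers was 6.71 and 4.82 RPKM at 2.8 mM and 8.41 and 5.84 RPKM at 16.8 mM. None of the 12 was at 0, and 5 had both 16.8 mM libraries above both 2.8 mM ones. By limma 2 were tested, 0 were called and 1 had an unadjusted p under 0.05, and by voom 5 of 12 were higher and 0 were lower. The junction protein gene *Pecam1* was at 0.247 and 0.176 RPKM at 2.8 mM and 0.459 and 0.286 RPKM at 16.8 mM, a voom log2 fold change of 0.80 (adjusted p = 0.0019). The endothelial cadherin gene *Cdh5* was at 0.409 and 0.235 RPKM and at 0.619 and 0.413 RPKM, a voom log2 fold change of 0.71 (adjusted p = 0.0099). *Egfl7*, a secreted endothelial protein, had a log2 fold change of 0.41 with a limma adjusted p of 0.103. *Flt1* and *Tek* were higher as well, at voom log2 fold changes of 0.74 (adjusted p = 1.2e-04) and 0.59 (adjusted p = 0.019). Some others of the 12 did not share this direction or size. *Emcn*, a surface sialomucin, was at 0.156 and 0.1003 RPKM at 2.8 mM and at 0.103 and 0.0853 RPKM at 16.8 mM (voom -0.42, adjusted p = 0.066), and the ratios of the means were 0.961 for *Kdr*, 1.02 for *Plvap* and 1.07 for *Esam*. The first 16.8 mM library was highest and the second 2.8 mM library lowest for the endothelial sum, for the leukocyte sum and for 7 of the 9 genes, *Hes1*, *Hes6* and *Smad7* among them and *Id4* and *Hey1* being the exceptions. The same order held for 29 of the 108 genes of the pathway lists taken up below, and it was not counted over all entries. *Hey1* was level between the 2.8 mM libraries, in which the endothelial and leukocyte sums differed. The part of endothelial cells in the values of the 9 genes was not tested.

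The 8 leukocyte markers summed to 15.7 and 11.6 RPKM at 2.8 mM and to 16.6 and 11.8 RPKM at 16.8 mM, replicate 1 being above replicate 2 for 8 of 8 in both groups. By voom 1 of 8 was higher and 0 were lower. The 10 stromal markers, of which voom called 0, summed to 4.48 and 2.50 RPKM at 2.8 mM and to 3.39 and 3.48 RPKM at 16.8 mM. The 10 acinar markers leaned the opposite way, with replicate 1 below replicate 2 for 10 of 10 in both groups and sums of 102.7 and 292.2 RPKM at 2.8 mM and 247.4 and 512.5 RPKM at 16.8 mM. By limma 9 of them were tested, 0 were called and 4 had an unadjusted p under 0.05, and by voom 9 of 10 were higher. The 8 duct markers summed to 41.9 and 37.5 RPKM at 2.8 mM and to 43.4 and 50.5 RPKM at 16.8 mM. By limma 4 of them were tested, 1 was higher (*Spp1*) and 1 was lower (*Krt7*), and by voom 3 were higher and 1 was lower. The part of these cells in the members' values was not tested either.

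**Figure D3:**
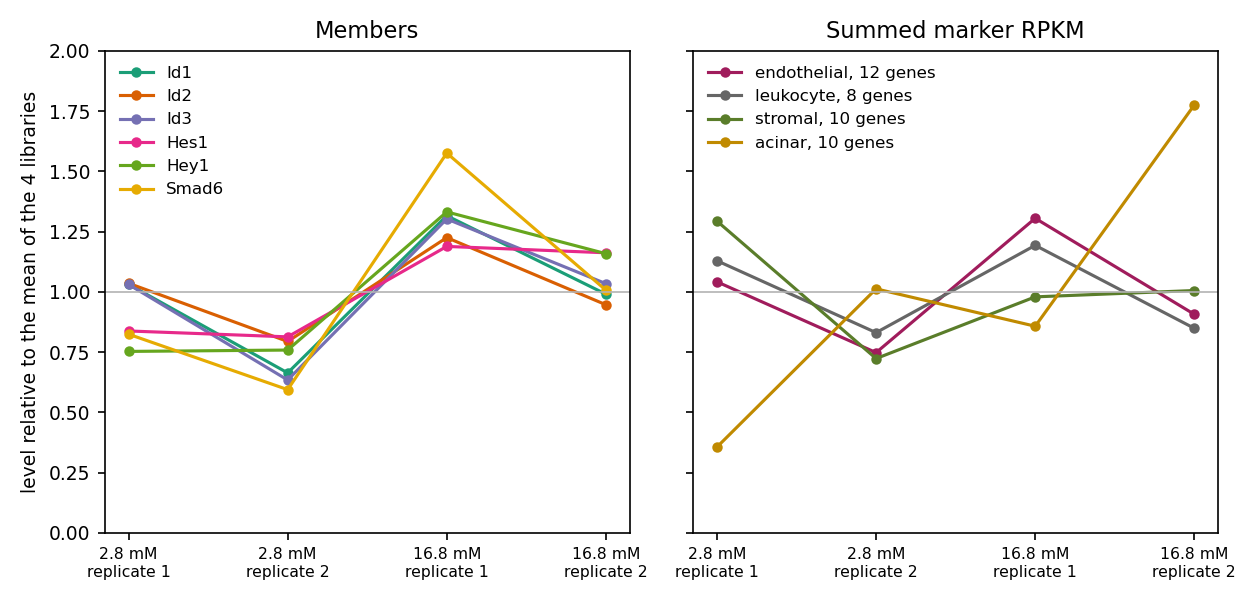
Level in each library relative to the mean of the 4 libraries (vertical axis) for 6 of the genes on the left and for the summed RPKM of endothelial, leukocyte, stromal and acinar markers on the right, each line joining the 4 libraries of 1 gene or list. All 6 genes are highest in the first 16.8 mM library, and all but *Hey1* are lowest in the second 2.8 mM library, as are the endothelial and leukocyte sums. *Hes1* and *Hey1* are nearly level between the 2.8 mM libraries.

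The genes that work with or against the 9 were taken as lists of both pathways and of their bHLH partners, 108 genes in all. Only 23 reached a mean of 1 RPKM over their span, of which 5 were higher, 5 were lower and 13 were not called. Over all tested transcripts, 10.7% were higher and 22.8% were lower. The median log2 fold change of the 23 was -0.09, beside -0.11 over all tested transcripts. By voom, 99 of the 108 were tested, of which 13 were higher and 21 were lower, beside 13.7% and 28.7% of all entries tested by voom. The 10 called by limma went to 6 without the first 2.8 mM library and to 4 without the second 16.8 mM library, and *Inhbb*, *Gdf15*, *Tob1* and *Bhlhe40* passed without any single library.

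On the BMP and TGF-beta side, 3 of 14 ligands were tested. *Inhbb*, the activin B subunit, rose from 1.18 and 1.10 RPKM to 3.83 and 2.58 RPKM, a log2 fold change of 1.16 with a standard error of 0.15 (limma adjusted p = 0.0024). *Gdf15*, a stress-induced member of the family, was lower, from 5.15 and 4.61 RPKM to 2.26 and 1.95 RPKM, with a log2 fold change of -1.05 and a standard error of 0.11 (limma adjusted p = 8.8e-04). *Inha*, the inhibin alpha subunit, was not called. *Bmp2* and *Bmp4*, ligands that induce Id genes in many cells, reached at most 0.112 and 0.0279 RPKM in any library. By voom, which reads 12 of the 14, 5 ligands were higher and 1 was lower. Among the higher were *Bmp2* by 1.45 on the log2 scale (adjusted p = 0.0084), *Bmp6*, a ligand made by endothelial cells, by 0.69 (adjusted p = 0.0477) and *Tgfb3* by 1.22 (adjusted p = 9.5e-04). In any library *Bmp6* reached at most 0.0119 RPKM and *Tgfb3* at most 0.1201 RPKM.

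None of the 13 receptors and 0 of the 6 receptor-regulated and common Smads reached the mean for a test. Both 16.8 mM libraries were below both 2.8 mM libraries for 6 of the 13 receptors and 4 of the 6 Smads, and above for 1 and 0, beside 46.7% and 23.7% of all entries. *Smad2*, which carries TGF-beta signals, was at 0.676 and 0.703 RPKM at 2.8 mM and at 0.424 and 0.409 RPKM at 16.8 mM, while *Smad1*, which carries BMP signals, overlapped between groups at 0.463 and 0.438 RPKM and at 0.463 and 0.393 RPKM. By voom, 2 receptors (*Tgfbr1* and *Tgfbr3*) and 3 Smads (*Smad2*, *Smad4* and *Smad9*) were lower and 0 of either were higher, with *Smad2* at -0.73 (adjusted p = 2.1e-05) and *Smad4*, the common Smad, at -0.39 (adjusted p = 0.0041). The receptors and Smads were named after their values were seen.

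Of the 18 inhibitors of these pathways, 5 were tested, 2 were higher and 0 were lower. *Tob1*, an antiproliferative protein that binds Smads, rose from 5.70 and 5.004 RPKM to 10.3 and 9.83 RPKM, with a log2 fold change of 0.86 and a standard error of 0.11 (limma adjusted p = 0.0023). *Tgif1*, a homeodomain co-repressor of Smad complexes, rose from 1.24 and 1.28 RPKM to 1.57 and 1.81 RPKM (log2 fold change 0.31, limma adjusted p = 0.033). *Twsg1*, which binds BMPs outside the cell, had a value of 0.25 (limma adjusted p = 0.097), and *Bambi*, a decoy receptor, one of 0.20 (limma adjusted p = 0.213). By voom, 4 of 15 inhibitors were higher and 3 were lower. The largest of these changes was that of *Bmper*, a BMP-binding protein named after its values were seen, which was at 0.0642 and 0.068 RPKM at 2.8 mM and at 0.0032 and 0.003 RPKM at 16.8 mM, a voom log2 fold change of -4.39 with a standard error of 0.23 (adjusted p = 2.4e-10). These low values are per span, and reads within introns enter them, so they are not a level of the mature messenger.

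On the Notch side, 0 of 6 ligands were tested. *Dll4*, named after its values were seen and known from arterial endothelium, was at 0.744 and 0.752 RPKM at 2.8 mM and at 1.24 and 1.04 RPKM at 16.8 mM, a pattern of 2 level libraries and 2 higher ones like that of *Hey1*, and its voom log2 fold change was 0.61 (adjusted p = 0.0022). By voom 1 ligand was higher and 1 was lower, the latter being *Jag1*, at 0.342 and 0.247 RPKM at 2.8 mM and at 0.227 and 0.204 RPKM at 16.8 mM (voom -0.44, adjusted p = 0.0375). Of 15 receptors and processing factors, 4 were tested, and *Aph1a*, a subunit of gamma-secretase, was lower with a log2 fold change of -0.38 (limma adjusted p = 0.039), while *Rfng*, a glycosyltransferase of Notch, *Psenen* and *Ncstn*, both further subunits, were not called. By voom 1 of the 15 was higher and 4 were lower. *Notch4*, the endothelial Notch receptor and likewise a later choice, was at 0.291 and 0.219 RPKM and at 0.466 and 0.355 RPKM, and voom put its log2 fold change at 0.69 (adjusted p = 0.0039). The lower ones were *Aph1a*, *Notch3*, a receptor of vessel wall cells, at -0.36 (adjusted p = 0.0365), *Pofut1*, at -0.36 (adjusted p = 0.0108), and the sheddase gene *Adam17*, at -0.29 (adjusted p = 0.0462), the last 3 also named after their values were seen. Of 18 nuclear factors, modifiers and other Notch targets, 1 was tested and 0 were called or had an unadjusted p under 0.05. By voom 0 of 15 were higher and 3 were lower. These were *Heyl*, *Numbl* (voom -0.37, adjusted p = 0.0283) and *Rbpj* (voom -0.25, adjusted p = 0.0468), named after their values were seen. *Heyl*, a relative of *Hey1* from vessel walls, was at 0.247 and 0.127 RPKM at 2.8 mM and at 0.0919 and 0.112 RPKM at 16.8 mM, and voom put its log2 fold change at -0.83 (adjusted p = 0.0265). *Hes5*, another Notch target of the family, was listed at 0 in 3 of the 4 libraries.

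Of the 6 Groucho genes, partners of Hes proteins, 2 were tested, and *Tle3* was lower, at 1.65 and 1.76 RPKM against 1.30 and 1.25 RPKM (log2 fold change -0.31, limma adjusted p = 0.0234). By voom 0 of the 6 were higher and 1, *Tle3*, was lower. Of the 12 bHLH factors, 8 were tested, 2 were higher and 2 were lower, and by voom 2 were higher and 3 were lower. *Neurod1*, the islet bHLH activator, rose from 19.1 and 15.7 RPKM to 26.8 and 26.6 RPKM (log2 fold change 0.61, limma adjusted p = 0.0157), and *Bhlhe40*, a repressor of the circadian clock, rose from 6.48 and 9.26 RPKM to 13.1 and 12.2 RPKM (log2 fold change 0.67, limma adjusted p = 0.0236). *Mlxipl*, which encodes the carbohydrate response factor ChREBP, was lower with a log2 fold change of -0.33 (limma adjusted p = 0.0477), and *Usf2*, an E-box factor, was lower with one of -0.33 (limma adjusted p = 0.0385). *Neurod1* lost its call without the second 16.8 mM library. *Tgif1*, *Aph1a*, *Tle3* and *Mlxipl* each lost theirs in most of the 4 fits without 1 library, and *Usf2* lost its call in all 4. *Neurog3*, which *Hes1* represses in the embryo, was at 1.86 and 1.40 RPKM at 2.8 mM and 1.52 and 1.14 RPKM at 16.8 mM and was not called (limma adjusted p = 0.25). The E proteins *Tcf3*, *Tcf4* and *Tcf12*, the partners that Id proteins hold, were all under the mean for a test.

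**Figure D4:**
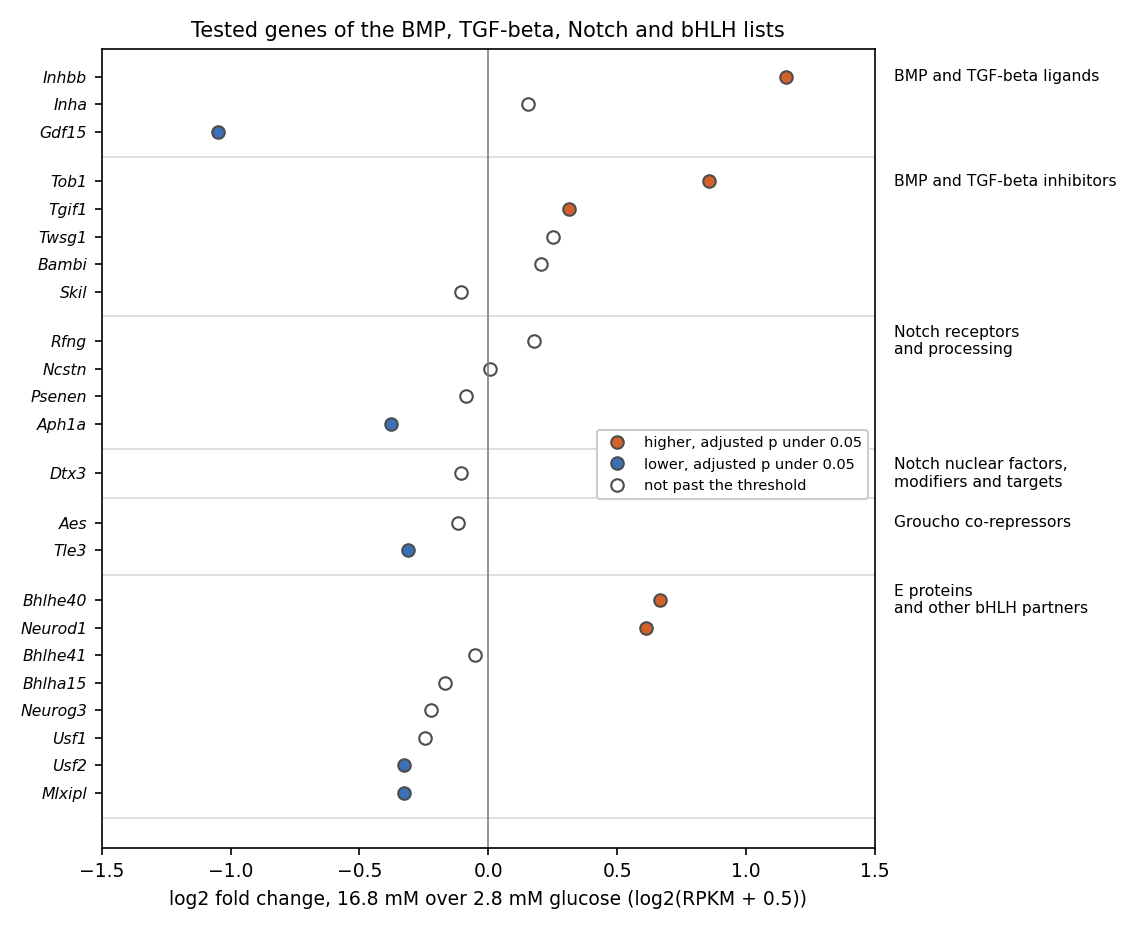
Log2 fold change of 16.8 mM over 2.8 mM glucose on log2(RPKM + 0.5) (horizontal axis) for the 23 tested genes of the pathway lists, grouped by list, with orange for higher, blue for lower and white for genes not past the threshold. The outermost points are *Inhbb* at 1.16 and *Gdf15* at -1.05, and 13 of the 23 points are white.

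The transcripts whose 4 values lay nearest to those of *Id1* were sought among the 1093 tested transcripts that averaged 10 RPKM or more, by the Euclidean distance of centred log2(RPKM + 0.5) values over the 4 libraries. They were *Mir6907*, an entry named for a miRNA hairpin whose reads are not separated from those of any overlapping transcript, at a distance of 0.15, the apolipoprotein gene *Apoe* at 0.18 and *Ttr*, which encodes transthyretin, at 0.20. For *Id3* they were *Mir7654* at 0.16, *Mir6907* at 0.16 and *Ttr* at 0.17. *Hes1* was added after its values were seen, and its nearest were *Pfn1*, *Shisa5* and *Ubl5* at 0.06, 0.06 and 0.07. The 4 libraries share depth and cell makeup among all these genes, so that a small distance is a description of these libraries only.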

How the data were processed

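RNA-seq was performed on mouse islets with 2 libraries at 2.8 mM and 2 at 16.8 mM glucose, made with the TruSeq RNA v2 kit. Per the labels, the authors used STAR, bedtools and DESeq on the mm9 genome, and they deposited RPKM values for 33923 entries. Whether counting used strand is not given in the sources used here.

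Values were taken to log2(RPKM + 0.5), so that fold changes of low genes are understated. The main test was limma 3.58.1 (R 4.3.3) on entries that averaged 1 RPKM or more, two-sided, with a variance trend, identical entries used once and Benjamini-Hochberg adjustment at 0.05 over 7867 transcripts. Depth was recovered from the steps of lncRNA values (94.4% to 99.3% within 0.1 of whole reads), and reads were reconstructed from RPKM, span (GENCODE annotation of mm9, known for 88.5% of entries) and depth. These estimated reads were tested with limma's voom, for entries with a mean of at least 20 reads. The main limma fit was tested on simulated data, and the voom, replicate block and left-out-library fits were not. Tables and figures used Python 3.11.15, pandas 2.3.3, numpy 2.4.6 and matplotlib 3.10.9.

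The members and lists were chosen with earlier results of these data known. All 9 members were described. Pathway genes were named where past the threshold, with up to 4 examples per list by size of change, and other pathway names and all single markers were chosen after their values were seen. Likeness was sought for *Id1* and the tested member with the largest change. Alternatives covered scaling, the added RPKM, the minimum, entries per gene, the variance trend, replicate number, reads and each library left out.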

Additional observations from a re-analysis of the deposited data

How the results depend on the processing

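With 2 libraries per group from a single pool of islets, the spread behind each p rests on few values, and 4 members lay under 1 RPKM over their span, where counting error and the added 0.5 RPKM limit the fold change. A fit that leaves out a library takes the lone library of a group to vary like the other group. The 4 members without a main test (*Id4*, *Hey1*, *Smad6* and *Smad7*) had no value under quantile normalization, without the variance trend, under the replicate block, with at least 1 RPKM in every library or by entries per gene. The direction of *Hes1*, the 1 member called, was not reversed in any alternative. The called pathway genes kept their direction in the fits without 1 library. Directions of the other called transcripts were not compared between settings. *Id4*, which was not tested by the main fit, changed sign in some of them. The cause of the shifts below was not tested.

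*Hes1* passed the threshold in all 16 alternatives that gave a p, and its log2 fold change was 0.41 to 0.45 with 1 library left out and 0.51 as a plain ratio of group means, with no RPKM added, a scale chosen after seeing the data. With 1 library left out, the log2 fold change was 0.13 to 0.70 for *Id1*, 0.0545 to 0.42 for *Id2*, 0.16 to 0.82 for *Id3*, 0.092 to 0.28 for *Hes6*, 0.31 to 0.42 for *Hey1*, 0.049 to 0.14 for *Smad6* and 0.070 to 0.17 for *Smad7*, and *Id4* ranged from -0.22 to 0.08. Called transcripts then numbered 1825 to 2579 instead of 2628, members 1 to 4 instead of 1 and pathway genes 4 to 8 instead of 10.

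Members called were 2 of 5 after quantile normalization and 2 of 5 after median centring, both with *Hes6* (0.23 and 0.27). Over all 7867 transcripts, 3730 and 3765 were called there. With at least 1 RPKM in every library 3 of 5 members were called, beside 2733 of 6909 transcripts. In that setting *Id1* (0.42, limma adjusted p = 0.0255) and *Id3* (0.49, limma adjusted p = 0.0151) passed. With no minimum RPKM, 5 pathway genes were called. Median centring gave 0.45 for *Hey1*, 0.18 for *Smad6* and 0.20 for *Smad7*. Adding 0.1 RPKM gave 0.60, 0.32 and 0.21, adding 1 RPKM gave 0.24 for *Hey1*, and ratios of mean RPKM with nothing added gave 0.72, 0.86 and 0.27. Voom on reconstructed reads called 7455 of 17599 entries, 4 of the 9 members and 34 of 99 pathway genes. It gave 0.52 for *Id3*, 0.72 for *Hey1*, 0.86 for *Smad6* and 0.27 for *Smad7*, and it tests more entries than the main fit.

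Libraries carry the numbers 1 and 2 in each group, but nothing ties a number to an animal or batch. The deviations of same-numbered libraries from their group means had a correlation of 0.31 across 7867 transcripts, which are not independent. With the replicate block, limma called 4067 of 7867 transcripts, 1232 of them higher, and 4 of 5 tested members, all higher. Among these were *Id1* at 0.42 (limma adjusted p = 0.0231), *Id2* at 0.24 (limma adjusted p = 0.0376) and *Id3* at 0.49 (limma adjusted p = 0.0377). Voom with the replicate block called 10087 of 17599 entries, 3295 of them higher. It called 8 of 9 members, all higher, and 51 of 99 pathway genes. Its values were 0.44 for *Id1*, 0.25 for *Id2*, 0.49 for *Id3*, 0.19 for *Hes6*, 0.72 for *Hey1*, 0.86 for *Smad6* and 0.27 for *Smad7*.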
